A study of Mus musculus with 10 samples.

Results

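Zfp459 and 9 related genes for Krüppel-associated box (KRAB) zinc finger proteins were followed in the ventral hippocampus (vHpc) of ovariectomized (OVX) mice, to ask whether the rise of Zfp459 with estradiol (E2) was shared by its neighbours. The 10 genes, of 24421 in the table, were taken by symbol: Rsl1, Zfp455, Zfp458, Zfp457, Zfp595, Zfp456, Zfp459, Zfp58, Zfp87 and Zfp748. The set was chosen by the E2 response of Zfp459 in these same libraries, the difference in its CPM between E2 and vehicle, so the levels of Zfp459 under E2 and vehicle are a description and carry no test.

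KRAB zinc finger proteins are DNA-binding repressors. An array of zinc fingers reads the DNA sequence, and the KRAB box recruits Trim28 (also called Kap1), which brings the histone H3 lysine 9 methyltransferase Setdb1 and heterochromatin protein 1 to the bound site. Their genes arose largely by tandem duplication and lie in clusters, and many of the proteins bind transposable elements. Rsl1 (regulator of sex-limitation) is known for holding down male-predominant liver genes in female mice, and its cluster holds its closest relatives.

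All mice were OVX C57BL/6 females, either wild type (OVX WT) or heterozygous for the BDNF Val66Met allele (OVX Het-Met), a variant of the growth factor BDNF. After 2 weeks of recovery they drank for 6 weeks either 300 nM E2 (about 0.7 µg per day) in 0.1% ethanol or 0.1% ethanol alone (vehicle). RNA pooled from 2 animals made each library, so individual animals cannot be seen, and the libraries analysed here were replicates 1 and 3 of vehicle-treated OVX WT, 1 and 2 of E2-treated OVX WT, and 1 to 3 of each OVX Het-Met group. Values were CPM, reads scaled to the total assigned to genes in a library, which ran from 19820184 to 23267410 reads, and 1 read was worth 0.0430 to 0.0505 CPM. The tissue label was checked against 8 markers of hippocampal excitatory neurons, all detected, which summed to between 6094 and 7722 CPM per library with Camk2a the most abundant. The levels of 6 pituitary markers differed between libraries. None was at 0 in all libraries, the hormone gene Prl was the most abundant, and they summed to between 2.42 and 210.2 CPM.

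The genes lie on chromosome 13 of GRCm38 (mm10) within 381 kb. In the GENCODE annotation Rsl1 (chr13:67173182-67184044) and Zfp455 (chr13:67194506-67209298) lie on the plus strand. The other members lie on the minus strand, in the order Zfp458, Zfp457, Zfp595, Zfp456, Zfp459 (chr13:67405709-67421418), Zfp58, Zfp87 and Zfp748 (chr13:67538641-67553830). Between the outermost members the table held 16 genes, 6 of them outside the list.

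Promoter sequences are shown because 8 of 9 members share letters there that the promoter given for Zfp459 lacks. RefSeq promoters (GRCm38.p6, 250 bases before to 50 after the start) were given for 9 members, Zfp87 being the exception. The promoter given for Zfp459 lies inside the RefSeq span of the gene (chr13:67405033-67443302). Only this 1 start of Zfp459 was searched, not the far end of that span. With each promoter left out in turn, the 20-base window with the most bases identical in all the others was sought. With Zfp459 left out, 17 of 20 bases were identical in the other 8 promoters, and with any other member left out the best window had 11. The resulting letters, GACTTNTGGGANNTGTAGTC, stood in 8 of 9 member promoters on the gene's strand and in 21 of 32851 promoters on either strand (0.0639%). Those 21 promoters belonged to 20 genes, and 19 of the 20 were in the stretch from 1 Mb before Rsl1 to 1 Mb after Zfp748, where 29 genes of the table had a promoter sequence. Zfp459 was not alone in lacking the letters, since 10 of the 29 did, among them its relatives Zfp953, Zfp65, Zfp712, Zfp759, Zfp273 and Rslcan18. The set of letters was chosen after the sequences were read, and it is a description of letters, not of a bound site. In the lines that follow the capitals mark it, in windows at chr13:67173084-67173143 (Rsl1, plus strand) and, on the minus strand, chr13:67306459-67306518 (Zfp457), chr13:67332579-67332638 (Zfp595) and chr13:67500521-67500580 (Zfp58). The Zfp459 line (chr13:67421434-67421493, minus strand) starts where 15 bases align with the first 15 of the Zfp595 window, 14 of them identical. The rest of that line is the sequence that follows and is not aligned, and it has no capitals because the letters are not in the promoter.
Rsl1: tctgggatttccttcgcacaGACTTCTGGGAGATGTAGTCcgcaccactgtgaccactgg
Zfp457: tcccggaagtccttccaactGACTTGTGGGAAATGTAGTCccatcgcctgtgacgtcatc
Zfp595: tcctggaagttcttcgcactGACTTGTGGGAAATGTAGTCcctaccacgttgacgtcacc
Zfp58: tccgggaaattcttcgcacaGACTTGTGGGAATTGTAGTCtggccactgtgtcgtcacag
Zfp459: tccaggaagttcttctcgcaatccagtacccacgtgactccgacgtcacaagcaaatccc

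The estrogen response element was also searched, because the treatment was a ligand of the estrogen receptors. Its full form, GGTCANNNTGACC on either strand, was in 0 of 9 member promoters and in 23 of 32851 promoters (0.0700%). Its 5-base arm, GGTCA on either strand, which the full form contains at each end, was in 5 of 9 member promoters and in 40.5% of all promoters. The Zfp459 promoter (chr13:67421369-67421668, minus strand) held the arm once, in capitals here.
Zfp459: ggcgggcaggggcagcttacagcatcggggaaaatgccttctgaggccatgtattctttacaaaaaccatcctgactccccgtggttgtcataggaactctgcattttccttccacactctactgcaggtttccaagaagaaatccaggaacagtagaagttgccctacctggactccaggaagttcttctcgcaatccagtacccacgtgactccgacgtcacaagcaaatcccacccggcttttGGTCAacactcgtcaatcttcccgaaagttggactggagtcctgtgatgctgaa

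Zfp459 was higher under E2 in both genotypes. Vehicle-treated OVX WT mice gave 1.295 and 0.694 CPM (28 and 14 reads), and E2-treated OVX WT mice 3.77 and 3.74 CPM (84 and 87 reads). OVX Het-Met libraries had 1.52, 1.31 and 1.34 CPM under vehicle (32, 26 and 29 reads) and 1.91, 2.30 and 2.28 CPM under E2 (39, 50 and 48 reads). The E2 and vehicle libraries did not overlap in either genotype. The ratio of the group means was 3.77 in OVX WT mice (0.995 ± 0.425 to 3.75 ± 0.0211 CPM, SD, n = 2 each) and 1.55 in OVX Het-Met mice (1.39 ± 0.111 to 2.16 ± 0.221 CPM, SD, n = 3 each). On the log2(CPM + 0.5) scale, which understates the change of low genes, the differences were 1.54 and 0.49. Counted from the highest log2 difference down, Zfp459 was 24th of the 15081 genes tested in OVX WT mice and 99th in OVX Het-Met mice. All E2 libraries lay above all vehicle libraries in both genotypes for 92 of 15081 genes (0.610%).

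The order of the genotypes was opposite under the 2 treatments. Under vehicle the 3 OVX Het-Met libraries had more Zfp459 than both OVX WT libraries, by as little as 1.31 against 1.295 CPM, and under E2 all 3 had less. Such a separation to the higher side under vehicle was met by 14.8% of all genes tested. Zfp459 was chosen partly for its E2 levels. Its lower OVX Het-Met values under E2 and the opposite order are therefore a description with no test. No share of all genes is given for that lower side. Averaged over treatments, OVX Het-Met against OVX WT differed by a log2 fold change of -0.16 (SE 0.14) in limma, also a description. The limma fit is a linear model fitted across all genes with Benjamini-Hochberg adjustment.

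**Figure D1:**
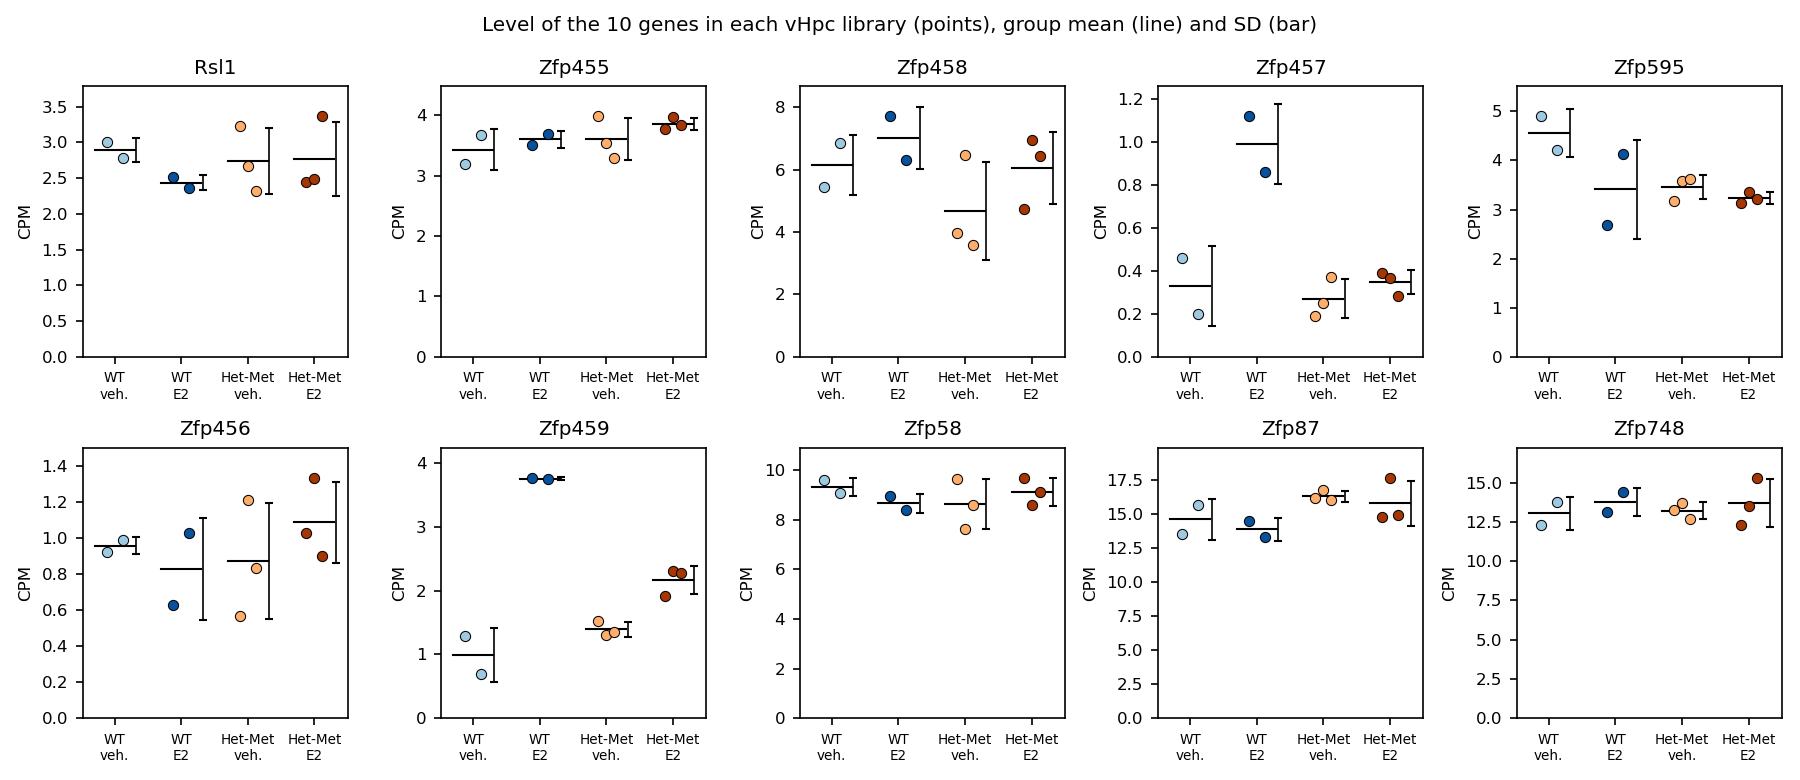
CPM (y axis, starting at 0) of each of the 10 genes in chromosomal order, by group (x axis, veh. is vehicle), with 1 point per library, a line at the group mean and a bar for the SD. For Zfp459 the 2 E2-treated WT libraries sit at 3.77 and 3.74 CPM, above all others, and for most other genes the groups overlap.

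The other members were then asked whether they followed Zfp459. The test took in the 15081 genes that averaged 0.5 CPM or more, 9 of them members, and Zfp457 was the member below that level. Genes were called at an adjusted p under 0.05 and a fold change above 1.3. In OVX WT mice 0 of the 8 other members tested were called with E2, where 0.0133% of all genes tested were called. At an unadjusted p under 0.05, limma likewise gave 0 of 8, against 4.04% of all genes, and edgeR and DESeq2 on the recovered reads called 0. Their median log2 fold change was -0.08, with 3 above 0 and 5 below (49% of all genes were above 0), and that of all genes was -0.0026. Among OVX Het-Met mice 0 of 8 were called, where 0% of all genes were, and 0 of 8 passed unadjusted, against 5.45%. The median was 0.06 there, with 6 above 0 and 2 below (51.8% of all genes were above 0). Averaged over genotypes 0 of 8 were called (0.00663% of all genes) and 0 of 8 passed unadjusted (3.22%). For the interaction of genotype and E2 0 of 8 were called (0.0729% of all genes) and 0 of 8 passed unadjusted (5.42%). edgeR and DESeq2 called 0 of the 8 in these comparisons too.

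The intervals bound what these libraries can show. In OVX WT mice the 95% confidence intervals of the 8 members reached from -0.80 to 0.69 on the log2(CPM + 0.5) scale, and the OVX Het-Met intervals from -0.42 to 0.78. For a low gene such as Zfp456 that scale understates the change in CPM, so these limits are not limits on its fold change in CPM. A difference between the response of Zfp459 and that of a neighbour was not tested, because Zfp459 was chosen for its response.

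The largest fitted E2 differences among the 8 were in Zfp595 and Zfp458. Zfp595 had 4.90 and 4.21 CPM in vehicle-treated OVX WT libraries and 2.69 and 4.13 CPM in E2-treated ones, a log2 difference of -0.39 (SE 0.19, limma adjusted p = 1.00). Its OVX Het-Met libraries overlapped, at 3.18, 3.58 and 3.62 CPM under vehicle and 3.13, 3.37 and 3.22 CPM under E2. Zfp458 had 5.46 and 6.84 CPM under vehicle and 7.72 and 6.32 CPM under E2 in OVX WT mice, and the groups overlapped. Zfp458 in OVX Het-Met mice had 3.98, 6.46 and 3.57 CPM under vehicle and 4.75, 6.96 and 6.45 CPM under E2, a log2 difference of 0.37 (SE 0.20, limma adjusted p = 0.929), and again the groups overlapped.

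Rsl1, the repressor of male-predominant liver genes, had 3.01 and 2.78 CPM under vehicle and 2.51 and 2.36 CPM under E2 in OVX WT mice. Both E2 libraries were lower, by a log2 difference of -0.21 (SE 0.20, limma adjusted p = 1.00). For OVX Het-Met mice Rsl1 overlapped, at 2.32 to 3.23 CPM under vehicle and 2.45 to 3.37 CPM under E2. Of the 8 members, 3 had both E2 libraries below both vehicle libraries in OVX WT mice (Rsl1, Zfp595 and Zfp58), where 16.2% of all genes tested did, and 0 had both above, where 15.6% did. The OVX Het-Met libraries of all 8 overlapped, where 5.15% of all genes were separated upwards and 5.11% downwards.

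Zfp458 ran from 3.57 to 7.72 CPM over the 10 libraries, and the 3 members above it in CPM had narrower ranges for their level. Zfp748 lay between 12.3 and 15.3 CPM, Zfp87 between 13.3 and 17.7 and Zfp58 between 7.62 and 9.69. Zfp455 lay between 3.19 and 3.98 CPM. Zfp456 was low, between 0.569 and 1.34 CPM, or 201 reads in all 10 libraries.

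**Figure D2:**
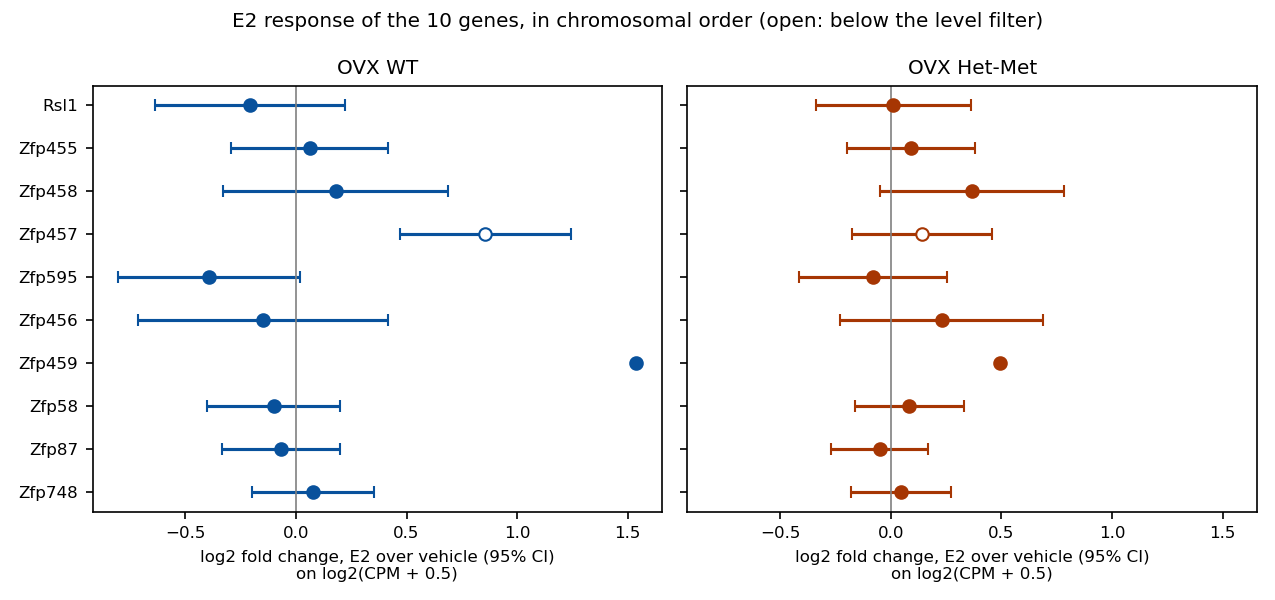
log2 fold change of E2 over vehicle on log2(CPM + 0.5) (x axis) for the 10 genes in chromosomal order (y axis) in OVX WT (left) and OVX Het-Met mice (right), with 95% confidence intervals from limma for the genes other than Zfp459. Zfp459, drawn without an interval because it was chosen for this difference, lies at 1.54 and 0.49, the intervals of the 8 other members tested all include 0, and Zfp457 (open symbol, from the fit without the level filter) lies at 0.86 and 0.14.

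Zfp457 was the member whose values came closest to those of Zfp459, at very low counts. OVX WT mice had 10 and 4 reads under vehicle and 25 and 20 under E2, or 0.463 and 0.198 CPM against 1.122 and 0.860 CPM. The libraries did not overlap, and the ratio of means was 3.00. Of all genes tested 15.6% were separated upwards in the same way. OVX Het-Met mice had 4, 5 and 8 reads under vehicle and 8, 8 and 6 under E2, and the groups overlapped. In a limma fit of all genes without the level filter, added after its values were seen, the log2 difference was 0.86 (SE 0.18) in OVX WT mice, with an adjusted p of 0.461 and an unadjusted p of 0.000522, and 0.14 (SE 0.14) in OVX Het-Met mice, with an adjusted p of 0.964 and an unadjusted p of 0.344 (5.55% of all genes passed unadjusted there). On the recovered reads edgeR gave 1.55 with an adjusted p of 0.613 (unadjusted 0.0074) in OVX WT mice, and DESeq2 1.58 with an adjusted p of 1.00 (unadjusted 0.0352). Zfp457 was thus past an unadjusted p of 0.05 in OVX WT mice in all 3 tools, as were 4.57% of the 20118 genes of the unfiltered limma fit, and none of the tools called it. Averaged over genotypes its log2 difference with E2 in that fit was 0.50 (SE 0.11), with a limma adjusted p of 0.992 and an unadjusted p of 0.00111 (3.81%), against unadjusted p of 0.020 in edgeR and 0.0557 in DESeq2. Between genotypes its log2 fold change in that limma fit was -0.45 (SE 0.11), with an adjusted p of 0.227 and an unadjusted p of 0.00222 (13.7% of all genes passed unadjusted), against unadjusted p of 0.0275 in edgeR and 0.0687 in DESeq2. For the interaction it was -0.71 (SE 0.23), with a limma adjusted p of 0.620 and an unadjusted p of 0.00954 (5.52%), but edgeR and DESeq2 gave unadjusted p of 0.138 and 0.227.

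Across the 10 libraries Zfp457 had a Pearson correlation of 0.81 with Zfp459 on log2(CPM + 0.5). For all 9 pairs with Zfp459 the correlations ran from -0.47 to 0.81 with a median of -0.11, and for the 36 pairs without it from -0.60 to 0.48 with a median of -0.03. The libraries are shared and include the E2 groups, so these values describe the pattern and were not tested. Of the genes tested, those most like Zfp459 over the 10 libraries were Asb4 (r = 0.956), Rgs22 (r = 0.899), Hist1h1c (r = 0.883), Mak (r = 0.863) and Zc2hc1c (r = 0.860), none of them a zinc finger gene of this cluster. Asb4 had 0.509 and 0.248 CPM under vehicle and 1.21 and 1.29 CPM under E2 in OVX WT mice. Asb4 in OVX Het-Met mice had 0.569, 0.555 and 0.742 CPM under vehicle and 0.636, 1.01 and 0.854 CPM under E2, and those groups overlapped.

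Genotype was compared next, which the choice of Zfp459 did not use. For OVX Het-Met against OVX WT averaged over treatments, limma and edgeR called 0 of the 8 other members. Of all genes limma called 0.0265%. DESeq2 called none either, but it gave no adjusted p for Rsl1, Zfp455, Zfp595 and Zfp456 and so could not call them. At an unadjusted p under 0.05 limma gave 0 of 8, against 16.6% of all genes. The median log2 fold change was 0.02, equal to that of all genes at 2 decimals. Zfp87 had the highest value at 0.17 (SE 0.08, limma adjusted p = 0.318) and Zfp458 the lowest at -0.30 (SE 0.15, adjusted p = 0.341). Zfp87 had 13.5 and 15.7 CPM in vehicle-treated OVX WT libraries against 16.1, 16.8 and 16.0 CPM in vehicle-treated OVX Het-Met ones. Under E2 Zfp87 had 14.4 and 13.3 CPM in OVX WT libraries against 14.7, 17.7 and 14.9 CPM in OVX Het-Met ones, so the genotypes did not overlap under either treatment. Such a separation to the higher side was met by 14.8% of all genes under vehicle and by 21.1% under E2.

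Per kilobase of annotated exon, Zfp459 was among the lower members. The mean levels over the 10 libraries were 5.34 CPM per kb for Zfp87, 3.66 for Zfp58, 2.37 for Zfp748, 1.34 for Zfp455, 1.03 for Rsl1, 0.722 for Zfp458, 0.662 for Zfp595, 0.550 for Zfp459, 0.204 for Zfp456 and 0.133 for Zfp457. Zfp87, Zfp58 and Zfp748 were each separated from the next member in all libraries, and from Zfp455 downwards each overlapped the next. Over the 10 libraries the highest value of Zfp459 was 5.43 times its lowest and that of Zfp457 5.91 times, against 1.25 to 2.35 times for the other members, and for Zfp459 this spread includes the E2 difference it was chosen for.

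The comparison was widened to every gene of the table from 1 Mb before Rsl1 to 1 Mb after Zfp748. Of 37 genes 35 averaged 0.5 CPM or more. Zfp459 was not counted, nor was F630042J09Rik, which passed that level only through its E2-treated OVX WT libraries and is described further on. Of the 33 others limma, edgeR and DESeq2 called 0 in either genotype, where limma called 0.0133% of all genes in OVX WT and 0% in OVX Het-Met mice. At an unadjusted p under 0.05 in limma, 0 of the 33 were higher and 5 were lower in OVX WT mice (2.37% and 1.66% of all genes), and 2 were higher and 0 lower in OVX Het-Met mice (2.82% and 2.63% of all genes). The 24 genes among the 33 with a Zfp or Rsl symbol had log2 differences between -0.55 (Zfp874a) and 0.22 (Zfp712) in OVX WT mice, with a median of -0.03. Under the same treatment in OVX Het-Met mice they lay between -0.10 (Zfp759) and 0.37 (Zfp458), with a median of 0.07.

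**Figure D3:**
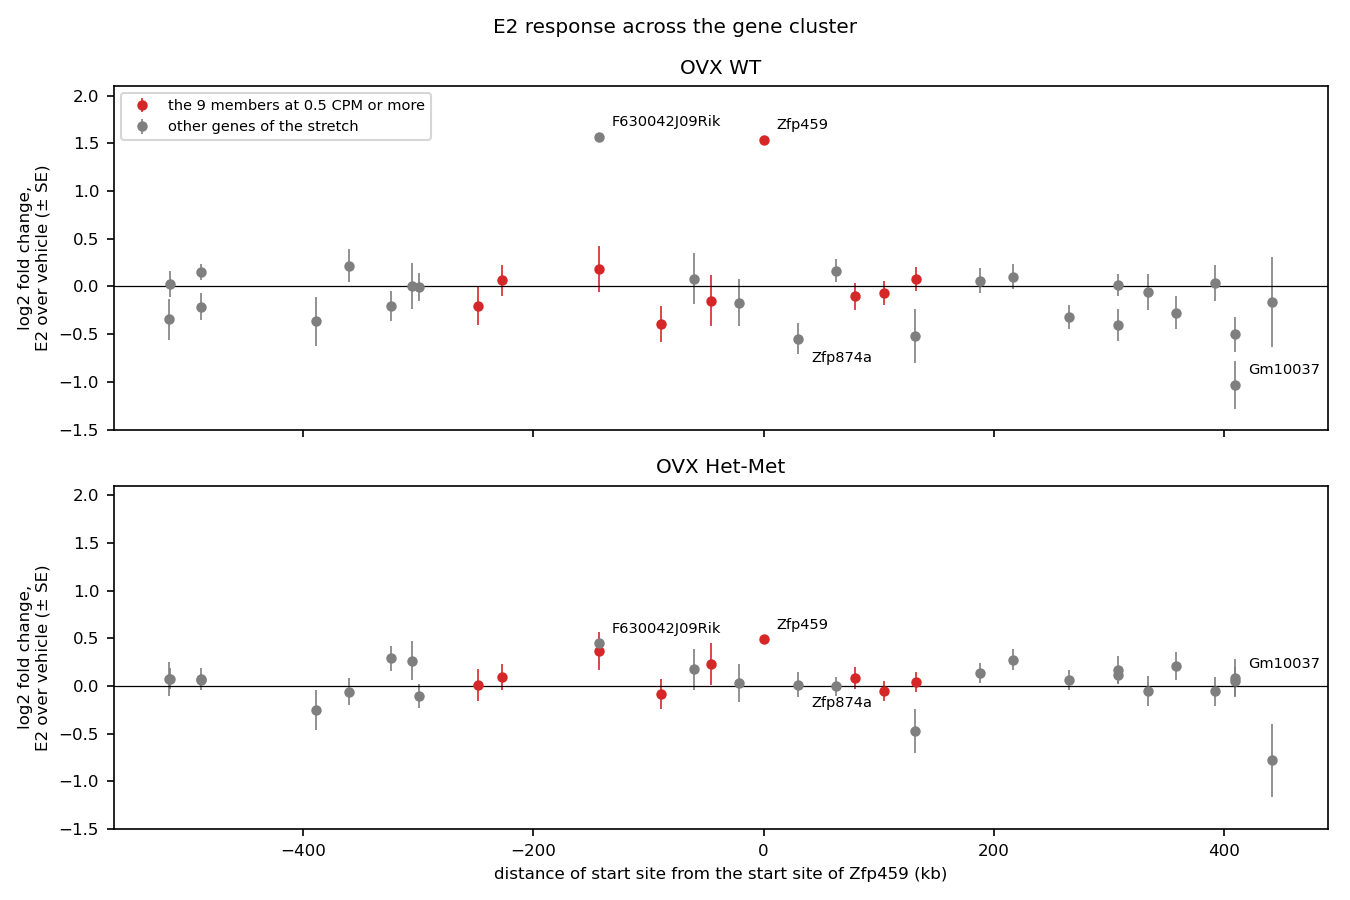
log2 fold change of E2 over vehicle (y axis, bars are the SE, not drawn for Zfp459 and F630042J09Rik, whose differences carry no test) against the distance of each start site from that of Zfp459 in kb (x axis) for the genes of the stretch at 0.5 CPM or more, in OVX WT (top) and OVX Het-Met mice (bottom). Members are red and other genes grey, and in OVX WT mice Zfp459 at 1.54 and F630042J09Rik at 1.57 stand above the rest while their neighbours lie near 0 or below.

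None of the genes next to Zfp459 was called with E2, though Zfp874a was lower at an unadjusted p under 0.05 in limma in OVX WT mice. On one side the nearest tested genes were Zfp429 (start site 21.6 kb away), Zfp456 (45.6 kb) and Zfp953 (60.8 kb), with log2 differences of -0.17 (SE 0.25), -0.15 (SE 0.26) and 0.08 (SE 0.27) in OVX WT mice, none of them called by limma (adjusted p = 1.00 for each). On the other side Zfp874b (62.8 kb) and Zfp58 (79.1 kb) had 0.16 (SE 0.12) and -0.10 (SE 0.14), also with adjusted p = 1.00 in limma. Zfp874a, the nearest on that side at 30.2 kb, had lower values in both E2-treated OVX WT libraries. It had 13.5 and 16.5 CPM under vehicle and 8.44 and 11.9 CPM under E2 in OVX WT mice, without overlap. Of all genes tested 16.2% were separated downwards in the same way. The log2 difference was -0.55 (SE 0.17), with an adjusted p of 0.714 and an unadjusted p of 0.00494 in limma. At an unadjusted p under 0.05, 1.66% of all genes were lower. Zfp874a in OVX Het-Met mice had 17.1, 14.7 and 14.6 CPM under vehicle and 15.5, 13.9 and 17.5 CPM under E2, with overlap.

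A long noncoding RNA of the cluster, F630042J09Rik, had values like those of Zfp459 in OVX WT mice and was singled out after its values were seen. It lies between Zfp458 and Zfp457 on the plus strand (chr13:67278577-67283361), and its start site is 111 bp from the GENCODE start of Zfp458 on the opposite strand. It had 9 and 7 reads under vehicle and 63 and 36 under E2 in OVX WT mice, or 0.416 and 0.347 CPM against 2.83 and 1.55 CPM. The groups did not overlap, where 15.6% of all genes tested were separated upwards, and the log2 difference was 1.57. Without the E2-treated OVX WT libraries its mean was 0.361 CPM, so it passed the minimum of 0.5 CPM only through the group in which it is high, and its difference is given with no test. F630042J09Rik in OVX Het-Met mice had 3, 5 and 5 reads under vehicle and 5, 19 and 8 under E2, a log2 difference of 0.45, and the groups overlapped. Its neighbour Zfp458 overlapped in both genotypes, as given above. The promoter of F630042J09Rik held the shared 20-base letters that the promoter of Zfp459 lacked, as did that of Zfp457.

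Gm10037, at the far end of the stretch and also chosen after its values were seen, had lower values with E2 in OVX WT mice, at 2.27 and 1.59 CPM under vehicle and 0.583 and 0.774 CPM under E2. Its log2 difference was -1.03 (SE 0.25, limma adjusted p = 0.329), and in OVX Het-Met mice it was 0.08 (SE 0.20).

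**Figure D4:**
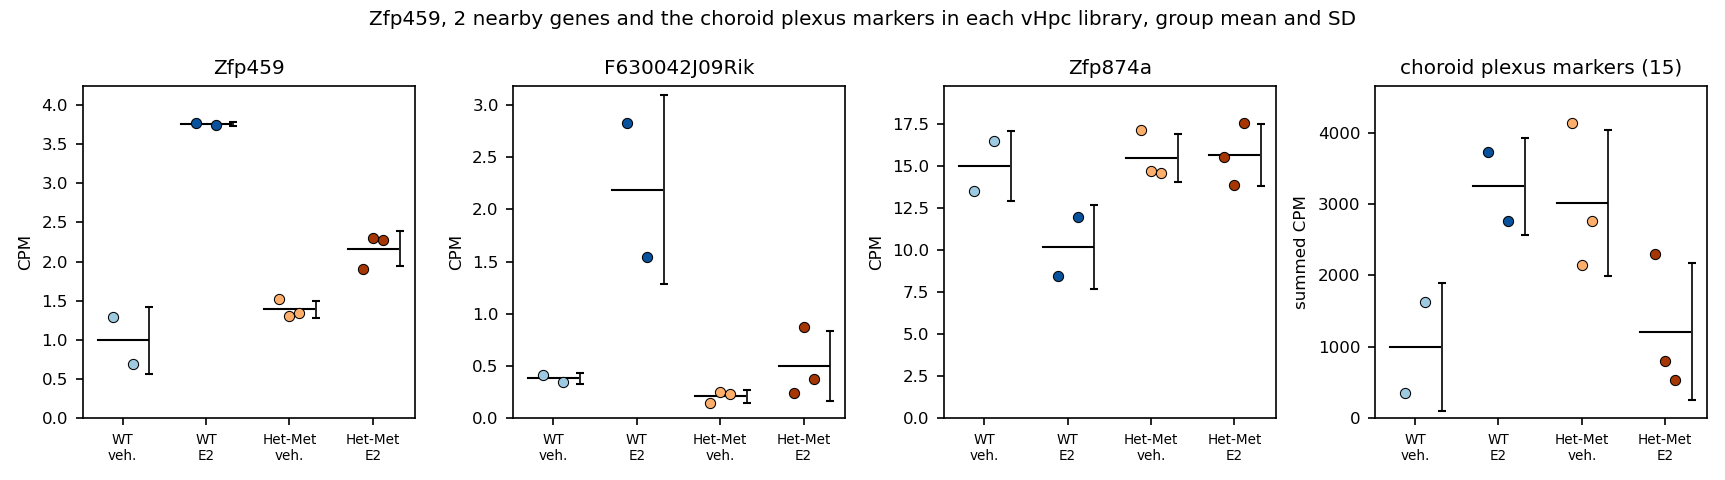
CPM of Zfp459, F630042J09Rik and Zfp874a, and summed CPM of 15 choroid plexus markers (y axes, each starting at 0), by group (x axis), with 1 point per library, a line at the group mean and a bar for the SD. F630042J09Rik is highest in the 2 E2-treated WT libraries (2.83 and 1.55 CPM), and the choroid plexus sum is highest in a vehicle-treated Het-Met library (4135 CPM).

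Choroid plexus markers differed between libraries and had different summed levels under vehicle and E2. All 15 markers were detected, with Ttr the most abundant, and none was at 0. Their summed level was 361 and 1633 CPM under vehicle and 3725 and 2769 CPM under E2 in OVX WT mice, and in limma 15 of 15 were past an unadjusted p of 0.05 (4.04% of all genes), with a median log2 difference of 2.06. None of the 15 was called by limma, edgeR or DESeq2 in either genotype. In OVX Het-Met mice the sum was 4135, 2145 and 2763 CPM under vehicle and 2305, 803 and 536 CPM under E2, with 11 of 15 past an unadjusted p of 0.05 (5.45% of all genes) and a median log2 difference of -1.13. The correlation of the sum with Zfp459 over the 10 libraries was 0.19. For 9 markers of the meninges, with Igf2 the most abundant and none at 0, the sum was 339 and 310 CPM under vehicle and 468 and 449 CPM under E2 in OVX WT mice. The OVX Het-Met sums were 449, 435 and 390 CPM under vehicle and 385, 317 and 374 CPM under E2, and the correlation of this sum with Zfp459 was 0.54. With E2 limma called 0 of the 9, and 2 in OVX WT and 3 in OVX Het-Met mice were past an unadjusted p of 0.05. For the interaction 3 of the 9 were past it (5.42% of all genes), as were 15 of the 15 choroid plexus markers. Of these Igf2, the growth factor gene, was called (0.0729% of all genes), with a log2 interaction of -1.23 (SE 0.20, limma adjusted p = 0.0454). That call was lost without the level filter, where 0 genes were called for the interaction. It was also lost with replicate 2 or 3 of vehicle-treated OVX Het-Met, or replicate 2 of E2-treated OVX Het-Met, left out. The 6 pituitary markers summed to 3.56 and 96.7 CPM under vehicle and 120.5 and 30.0 CPM under E2 in OVX WT mice, and to 13.3, 13.02 and 5.15 CPM under vehicle and 49.2, 210.2 and 2.42 CPM under E2 in OVX Het-Met mice. The groups overlapped in both genotypes, none of the 4 markers tested was past an unadjusted p of 0.05 in limma in either genotype (4.04% and 5.45% of all genes), and the correlation of the sum with Zfp459 was 0.24. A part of the meninges, choroid plexus or pituitary in the values of Zfp459, Zfp457 or F630042J09Rik was not tested. In bulk tissue fewer cells of a type and less RNA per cell cannot be told apart.

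Reads shared between relatives were examined, since zinc finger genes of a cluster resemble each other. Of the 75-base windows of the Zfp459 transcripts, the read length used, 436 of 3671 (11.9%) also occurred in another annotated gene, 391 of them in the antisense gene Gm48900, which overlaps 457 bp of Zfp459 exon. Allowing 2 mismatches, 169 windows (4.60%) matched another gene of the table in the stretch, which leaves out Gm48900. That search compared transcripts in the same direction only, so its count cannot be set against the exact one. Zfp457 shared no exact window with Zfp459, and shared 89 with Zfp458. Allowing 2 mismatches, 320 of its windows (9.61%) matched Zfp458, whose mean over the 10 libraries was 5.85 CPM against 0.450 CPM for Zfp457. Zfp456 was the least certain member, with 60.8% of its windows in another gene, most of them in the antisense gene Gm17039. Zfp58 shared 1153 of 2576 windows (44.8%), all with Gm26965, a gene annotated as a read-through of this stretch, and shared 0 once read-through genes were left out. For Zfp456 57.6% of windows were then still shared. The library kit kept strand, but whether strand was used in counting is not given in the sources used here, so reads of Gm48900 and Zfp459 cannot be told apart with certainty. The RefSeq span of Zfp459 (chr13:67405033-67443302) runs into the Zfp874a locus while the GENCODE span does not, and the annotation used for counting is likewise not given.

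The partners of the KRAB box were measured as a group of 30 co-repressor and heterochromatin genes, all tested. With E2, limma, edgeR and DESeq2 each called 0 of 30 in OVX WT and 0 of 30 in OVX Het-Met mice, where limma called 0.0133% and 0% of all genes. At an unadjusted p under 0.05 limma gave 0 in both, against 4.04% and 5.45% of all genes. Trim28, which the KRAB box binds, had 157 and 141 CPM under vehicle and 147 and 137 CPM under E2 in OVX WT mice, a log2 difference of -0.07 (SE 0.08). Trim28 in OVX Het-Met mice had 160, 149 and 155 CPM under vehicle and 149, 143 and 155 CPM under E2, a difference of -0.05 (SE 0.06). Setdb1, the H3 lysine 9 methyltransferase of the complex, had log2 differences of -0.07 (SE 0.10) and 0.0089 (SE 0.083). Between genotypes 0 of 30 were called by these tools (0.0265% of all genes by limma), and in limma 1 was higher and 3 lower at an unadjusted p under 0.05 (9.33% and 7.27% of all genes). The lowest of these was Atf7ip, a cofactor of Setdb1, at -0.24 (SE 0.07, limma adjusted p = 0.147).

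Zfp459 was set beside the wider family of 343 other tested genes whose symbol begins with Zfp. In OVX WT mice limma, edgeR and DESeq2 called 0 of them with E2, where limma called 0.0133% of all genes. In limma 3 were higher and 11 lower at an unadjusted p under 0.05 (2.37% and 1.66% of all genes), and their log2 differences ran from -0.55 (Zfp874a) to 0.76 (Zfp97) with a median of -0.0089. Among OVX Het-Met mice 0 were called by these tools (0% of all genes by limma), 8 were higher and 1 lower unadjusted in limma (2.82% and 2.63% of all genes), and the values ran from -0.37 (Zfp36) to 0.50 (Zfp69).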

How the data were processed

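The authors trimmed and filtered 75-base single-end reads, aligned them to mm10 with TopHat2, and deposited CPM per gene symbol, scaled to the reads counted on genes. Divided by the lowest nonzero value of its library, 100% of the values came out whole (tolerance 0.001), which recovered the reads. The submitters' processing notes also name DESeq and DESeq2. limma 3.58.1 in R 4.3.3 (empirical Bayes moderation with a trend) was fitted to log2(CPM + 0.5) for 15081 genes averaging 0.5 CPM or more, with the means of the 4 groups over 10 libraries, two-sided, with Benjamini-Hochberg adjustment over all genes tested. edgeR 4.0.16 and DESeq2 1.42.0 were run on the recovered reads. Prior degrees of freedom were 8.90 and residual ones 6. Positions and exon lengths came from GENCODE vM21 and promoters from RefSeq, and of 24421 symbols 114 had no match. Depth was 19820184 to 23267410 reads per library, and precision at low counts is that of counting error at least. Named genes were the 10 members, the 3 nearest tested genes on either side of Zfp459, called genes of the stretch, the 5 genes most like Zfp459, and others said to be chosen after their values were seen. The members and lists were chosen with earlier results of these data known. The human libraries were not analysed here. The fit was tested on simulated data.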

Additional observations from a re-analysis of the deposited data

How the results depend on the processing

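With 2 or 3 libraries per group and as few as 3 reads in a library, small changes of the low genes (Zfp457, Zfp456, F630042J09Rik) were not detectable at this depth. The libraries pool animals, so p-values measure the spread between pools. The count of members other than Zfp459 called was 0 in all 5 comparisons under every alternative and with each library left out. Zfp457 was below the level filter and entered these counts only in the fit without it, where it was not called. The unadjusted alternative kept the filter, so it left out Zfp457, whose unfiltered limma fit gave an unadjusted p of 0.000522 in OVX WT mice. Between genotypes DESeq2 gave no adjusted p for Rsl1, Zfp455, Zfp595 and Zfp456. The log2 difference of Zfp459 stayed above 0, between 1.24 and 1.91 in OVX WT mice and between 0.40 and 0.64 in OVX Het-Met mice, and that of Zfp457 in OVX WT mice lay between 0.59 and 1.58.

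The count of all genes called depended on the processing, and the cause was not tested. For E2 in OVX WT mice it was 2, against 389 unadjusted, 0 with a pseudocount of 0.1, 4 with a pseudocount of 1, 0 without a filter, 0 at a mean of at least 2 CPM, 1 with only the libraries compared, 14 by DESeq2, and 0 to 16 with a library left out. For OVX Het-Met mice it was 0, against 294 unadjusted and 6 by DESeq2. Averaged over genotypes it was 1, against 118 unadjusted, 0 with a pseudocount of 0.1, 0 without a filter, 0 at a mean of at least 2 CPM, 3 with median-of-ratios scaling, 3 with quantile normalization, 3 with TMM, 0 by edgeR, 5 by DESeq2, and 0 to 1 with a library left out. Between genotypes it was 4, against 293 unadjusted, 2 without a filter, 88 by DESeq2, and 1 to 86 with a library left out. For the interaction it was 11, against 597 unadjusted, 0 without a filter, 5 at a mean of at least 2 CPM, 7 with quantile normalization, 38 by DESeq2, and 0 to 71 with a library left out.

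Same-numbered libraries did not deviate together (correlations of deviations from the group means between -0.172 and 0.0826, against -0.151 to 0.172 for different numbers), so the numbers were not taken as pairs. With the replicate number as a block, 10 genes were called in OVX WT mice, 0 averaged over genotypes and 18 for the interaction. Under this block Zfp456 turned to -0.054 and Zfp58 to 0.016 averaged over genotypes, and between genotypes Zfp58 turned to 0.0015 and Zfp748 to -0.015.

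Signs near 0 also turned in other ways. Zfp748 between genotypes was -0.018 with median-of-ratios scaling, -0.032 with quantile normalization, -0.018 with TMM, -0.012 by edgeR and -0.017 by DESeq2. With a library left out, E2 in OVX WT mice gave -0.025 to 0.15 for Zfp455, -0.37 to 0.071 for Zfp456, -0.17 to 0.035 for Zfp87 and -0.0018 to 0.15 for Zfp748. For OVX Het-Met mice it gave -0.12 to 0.12 for Rsl1 and -0.036 to 0.12 for Zfp748. Averaged over genotypes it gave -0.070 to 0.15 for Zfp456 and -0.049 to 0.031 for Zfp58. Between genotypes it gave -0.030 to 0.082 for Rsl1, -0.036 to 0.18 for Zfp456, -0.061 to 0.018 for Zfp58 and -0.036 to 0.044 for Zfp748. The interaction gave -0.060 to 0.11 for Zfp455, -0.086 to 0.12 for Zfp87 and -0.11 to 0.047 for Zfp748.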

Other observations

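Male-predominant liver genes were almost absent from the vHpc. Rsl1 is known for acting on the complement gene Slp (C4a) and on Cyp2d9, while the Mup genes are known as targets of Rsl2, another gene of the cluster. Of 9 male-predominant liver genes looked up, 7 were listed at 0 in all 10 libraries (Mup1, Mup2, Mup3, Mup7, Mup20, Cyp4a12a and Slco1a1), and Cyp2d9 had 3 reads in 1 library. Genes with near-identical copies can lose reads in counting, so a listing at 0 for the Mup family is uncertain. C4a, the sex-limited complement gene, was the 1 tested, with 3.84 and 1.64 CPM under vehicle and 1.66 and 1.85 CPM under E2 in OVX WT mice. C4a in OVX Het-Met mice had 1.80, 2.88 and 3.48 CPM under vehicle and 3.23, 2.58 and 3.60 CPM under E2. The groups overlapped in both genotypes, and C4a has a close copy, C4b, with which it can share reads.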
